A study of Mus musculus with 6 samples.

Results

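The proteasome is the protease complex that degrades ubiquitin-tagged proteins. It consists of a 20S core, whose alpha rings form the gate and whose beta rings carry the cutting sites, and of 19S caps, whose ATPases unfold substrates and whose other subunits bind ubiquitin and remove it. NFE2L1, also called NRF1, is a transcription factor anchored in the endoplasmic reticulum and continuously degraded by the proteasome. When proteasome activity falls short, NFE2L1 is processed, enters the nucleus with a small MAF partner, and activates the genes of proteasome subunits through antioxidant response elements. In liver, loss of NFE2L1 from hepatocytes is known to cause steatosis, and NFE2L2, or NRF2, is its relative that controls antioxidant genes.

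The genes described here are those named Psma to Psmg followed by a digit that are protein-coding, without the immunoproteasome genes Psmb8, Psmb9 and Psmb10, together with Nfe2l1 and Nfe2l2. The rule gave 49 genes out of 54600 in the table. They comprise 8 genes of the 20S alpha ring, 8 of the beta ring, 6 of the 19S ATPases, 11 other 19S subunits, 6 activators and inhibitors, 7 assembly chaperones, the 2 regulators, and Psmc3ip. Psmc3ip encodes a protein of meiotic recombination and is taken in by its name only. By class, 33 of the 49 are therefore 20S or 19S subunits. The 6 activators and inhibitors, the 7 chaperones and the 2 regulators are not.

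Liver was profiled by bulk RNA-seq after 16 weeks of high-fat diet, which all the mice received. There were 3 libraries labelled wild type (WT) and 3 labelled knockout (KO), in which hepatocytes are to lack the oxygen-regulated transcription factor subunit HIF-2α, the product of Epas1. The labels give neither strain, age, sex nor the Cre driver, and they do not say whether each library is a separate animal, so p-values measure the spread between these libraries, which may be technical. Expression is in TPM, a level per transcript length that sums to the same value for each library and leaves read depth unknown. Epas1 was not lower in the KO-labelled libraries (26.6, 35.1 and 29.4 TPM) than in the WT-labelled ones (23.8, 26.0 and 21.01 TPM), so directions are given between labels. All 8 hepatocyte markers were present, with a summed level of 51290 to 59710 TPM under the WT label and 56400 to 73680 under the KO label. Of 9 lymphocyte and leukocyte markers, 8 stayed below the 1 TPM filter. In bulk liver, fewer cells of a type and less RNA per cell cannot be told apart.

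The level of Nfe2l1 was lower in every KO-labelled library, while the levels of the proteasome subunit genes overlapped between the labels, with differences whose sign depended on scaling. Neither it nor any other member passed the test over all genes (limma on log2(TPM + 1), adjusted p below 0.05). Of the 49 genes, 45 reached 1 TPM in at least 3 libraries and were tested. The test called 1 of 11440 genes, or 0.00874%, and 0 of the 45 members, and the called gene was no member. At an unadjusted limma p below 0.05 there was 1 member, Nfe2l1, beside 3.15% of all genes tested (0.385% lower and 2.76% higher under the KO label), so the members' share was close to that of all genes. With a replicate block, which compares libraries of the same number, 2 members had an unadjusted p below 0.05 beside 6.18% of all genes: Nfe2l1, lower, beside 0.918%, and Psmd9, higher, beside 5.26%. After median-ratio scaling, which sets the typical gene equal between libraries, there were also 2, Nfe2l1 and Psmg1, both lower, beside 2.63% of all genes (1.25% lower and 1.38% higher).

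Nfe2l1 (ENSMUSG00000038615, joined in the table to an assembled locus; mm10 chromosome 11, 96817414 to 96829968, minus strand) was at 42.3, 39.2 and 43.6 TPM in the WT-labelled libraries. In the KO-labelled libraries it was at 31.4, 31.8 and 26.3 TPM. Every KO-labelled library lay below every WT-labelled one, which held for no other member. The labels were separated in this direction for 0.857% of all genes tested, and in either direction for 9.08%. Mean levels were 41.7 ± 2.27 and 29.8 ± 3.05 TPM (SD, n = 3 each), a ratio of 0.716. The log2(TPM + 1) difference was -0.47 with a standard error of 0.13 and a 95% interval from -0.77 to -0.18. Unadjusted, limma gave a p of 0.00638, which became 0.993 after adjustment over 11440 genes, and an exact two-sided permutation test gave 0.1, the smallest that 3 libraries against 3 allow. Among genes with a negative difference, its p was the 7th smallest, and it was included with that standing already known. The difference stayed between -0.39 and -0.58 under the alternatives run. Stellate cell markers summed to 103.7 to 128 TPM under the WT label and 126.9 to 145.5 under the KO label. Most of that sum was Dcn, whose groups overlapped. Of the 8 markers, 4 were separated and higher, beside 8.23% of all genes tested, and 1 of these, Col1a1, was too low to be tested. An unadjusted limma p below 0.05 was seen for 3 of the 7 tested, and for 0 after median-ratio scaling. For cholangiocyte markers it was 1 of 2 tested and for endothelial markers 1 of 7, both higher, before and after that scaling. The sums were 24.91 to 35.28 TPM under the WT label and 34.9 to 56.21 under the KO label for cholangiocyte markers. They were 94.39 to 101.3 and 96.55 to 109.0 TPM for endothelial ones. The part of these markers in the level of Nfe2l1 was not tested.

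Nfe2l2 (ENSMUSG00000015839; chromosome 2, 75675513 to 75704641, minus strand) did not separate the labels. It was at 37.0, 24.9 and 19.6 TPM in the WT-labelled libraries and at 32.03, 31.5 and 19.2 TPM in the KO-labelled ones. The libraries numbered 3 were the lowest under each label, and the groups overlapped almost entirely. Its difference was +0.03 with a standard error of 0.28 (limma adjusted p = 0.994), so its interval, from -0.61 to +0.68, holds sizable differences in either direction. Median-ratio scaling, quantile normalization and removal of the most abundant genes each turned the sign.

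**Figure D1:**
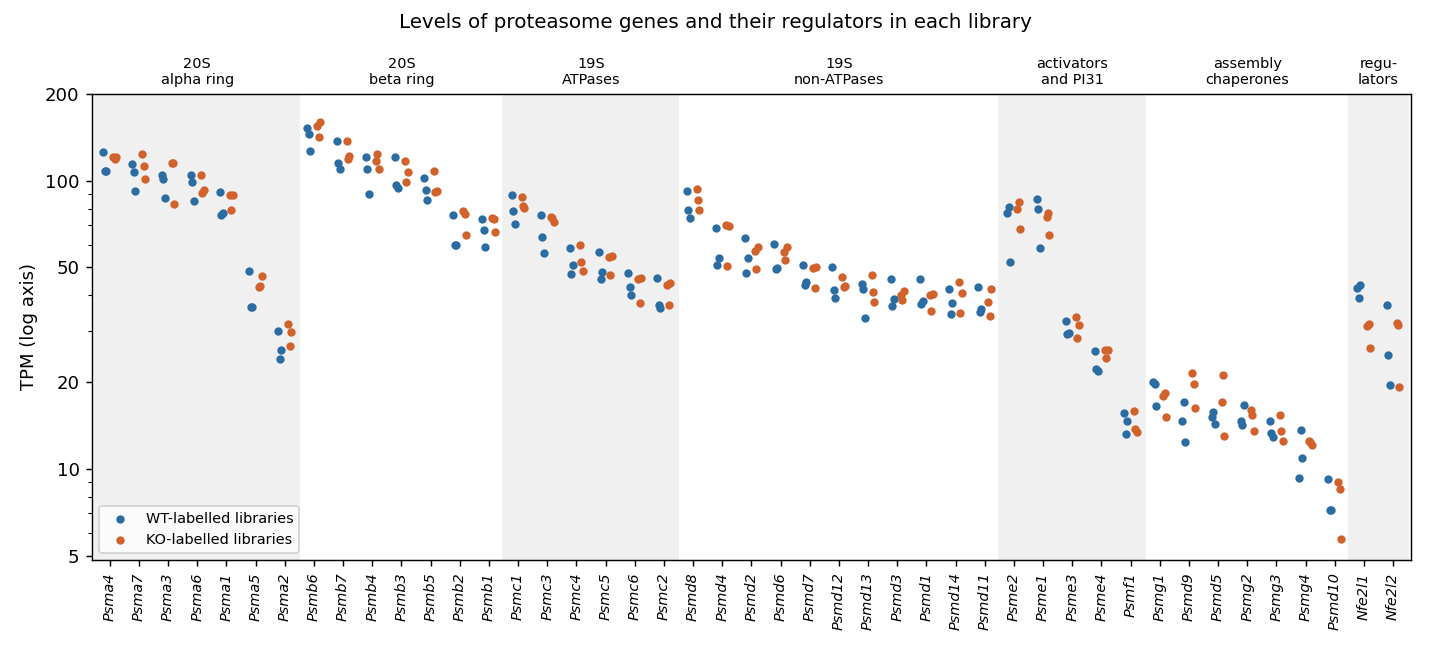
Level of each of the 45 tested genes in every library, in TPM on a log axis, with genes ordered by class and by mean level. Each point is 1 library. The WT and KO points overlap for every gene except Nfe2l1, at 39.2 to 43.6 against 26.3 to 31.8 TPM.

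The 31 tested subunits of the 20S core and 19S cap were expressed at mean levels of 28.1 (Psma2) to 147 TPM (Psmb6). None of the 31 had an unadjusted limma p below 0.05, and the smallest was 0.246. Their log2 differences lay between -0.06 and +0.18, with 27 above 0 and a median of 0.073. Over all genes tested, 74.5% were above 0, 25.5% below, and the median was 0.095, and 9 of the 31 subunits lay above that median. The sign of the subunits' median depended on scaling: it was -0.034 after median-ratio scaling (7 above 0 and 24 below), -0.007 after quantile normalization (13 above and 18 below) and 0.007 without the most abundant and mitochondrial genes. It also moved with single libraries, to 0.158 without WT replicate 1, 0.036 without WT replicate 2, 0.009 without WT replicate 3 and 0.014 without KO replicate 1. Median-ratio scaling moved the median of all genes to 0.002, and the split of genes with an unadjusted p below 0.05 from 316 higher and 44 lower to 158 higher and 143 lower. The 95% intervals of the 31 subunits reached from -0.37 at the lowest, in Psmd1, to +0.55 at the highest, in Psmd4.

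In the 20S alpha ring, the 7 tested genes had differences from -0.003 to +0.14. Psma4 was the most abundant of them, at 126, 108 and 108 TPM in the WT-labelled libraries and 121, 119 and 121 TPM in the KO-labelled ones. Its KO-labelled values lay within the range of the WT-labelled ones. Psma2, the least abundant, was at 30.01, 24.2 and 26.0 TPM against 31.9, 26.7 and 29.8 TPM, and had the smallest limma p of the ring (difference +0.14, adjusted p = 0.993). The groups overlapped for it too. Psma5 was at 48.6, 36.4 and 36.4 TPM under the WT label and 42.9, 43.0 and 46.7 TPM under the KO label (difference +0.13), and Psma7 at means of 104 ± 11.4 and 113 ± 10.8 TPM (SD, n = 3 each). Psma8, the alpha subunit known from the testis proteasome, stayed between 0.296 and 1.29 TPM and was not tested.

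In the 20S beta ring, all 7 tested genes had differences above 0, from +0.05 to +0.17, of which median-ratio scaling left 2 above 0. Psmb6, the caspase-like catalytic subunit, was the most abundant member of all. It stood at 153, 146 and 127 TPM in the WT-labelled libraries and at 155, 142 and 160 TPM in the KO-labelled ones, with overlapping groups. Psmb5, the chymotrypsin-like catalytic subunit, was at 102, 92.6 and 85.9 TPM against 108, 91.2 and 92.3 TPM, and the trypsin-like subunit gene Psmb7 at 137, 115 and 110 TPM against 137, 119 and 122 TPM. None of these catalytic genes differed beyond the spread between libraries (differences of +0.10, +0.05 and +0.07, each with a limma adjusted p of 0.993). The smallest p in the ring was that of Psmb2, a non-catalytic subunit gene, at 76.0, 59.9 and 59.9 TPM against 78.8, 76.5 and 65.0 TPM (difference +0.17, limma adjusted p = 0.993). Psmb4 was at 107 ± 15.6 and 117 ± 6.82 TPM, and Psmb1, the lowest of the ring, at 66.7 ± 7.39 and 71.5 ± 4.38 TPM (SD, n = 3 each). Psmb11, the subunit of the thymus proteasome, was listed at 0 in 5 libraries and at 0.015 TPM in KO replicate 3.

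The 6 ATPase genes of the 19S base were at mean levels of 40.6 (Psmc2) to 81.5 TPM (Psmc1). Psmc3 had the smallest p of the class, at 76.3, 64.0 and 56.1 TPM in the WT-labelled libraries and 74.9, 74.1 and 71.7 TPM in the KO-labelled ones (difference +0.18, limma adjusted p = 0.993). WT replicate 1 lay above all 3 KO-labelled libraries and the other two below, so the labels did not separate. Psmc1 was at 79.6 ± 9.36 and 83.4 ± 4.16 TPM and Psmc2 at 39.8 ± 5.50 and 41.5 ± 4.003 TPM (SD, n = 3 each).

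The 11 other 19S subunits had mean levels of 38.0 (Psmd11) to 84.0 TPM (Psmd8), and their median difference was 0.031. Psmd4, the ubiquitin receptor, was at 68.3, 51.1 and 53.9 TPM in the WT-labelled libraries and 70.0, 50.6 and 69.5 TPM in the KO-labelled ones. It was high in WT replicate 1 and in KO replicates 1 and 3, so its spread lay within the labels. Psmd6 was at 53.2 ± 6.31 and 56.3 ± 3.02 TPM, Psmd8 at 81.9 ± 9.23 and 86.1 ± 7.19 TPM, and Psmd11 at 37.98 ± 4.31 and 38.04 ± 4.16 TPM (SD, n = 3 each). Psmd14, which encodes the deubiquitinase of the cap, was at 38.0 ± 3.87 and 40.03 ± 4.99 TPM.

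**Figure D2:**
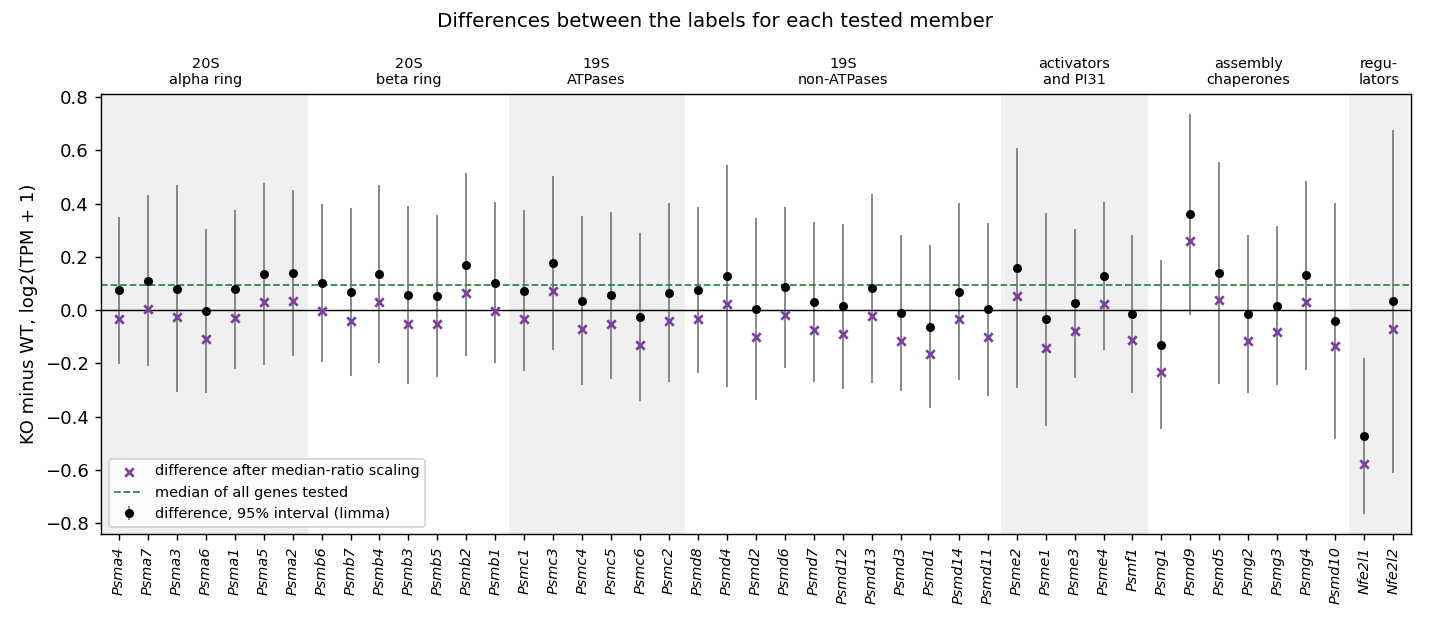
Difference between labels (KO minus WT) of each tested gene on the log2(TPM + 1) scale. Dots and bars are the limma estimate and its 95% interval, crosses the estimate after median-ratio scaling, and the dashed line the median of all genes tested, 0.095. The interval of Nfe2l1, from -0.77 to -0.18, is the only interval shown that does not include 0.

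Subunit levels moved together across libraries, and this shared variation lay within the labels. In WT replicate 1 all 31 subunits were above their own mean over the 6 libraries, with a median of +0.14 on the log2(TPM + 1) scale, and in KO replicate 1 all 31 were above, with a median of +0.11. In WT replicate 3 none was above its mean (median -0.15) and in WT replicate 2 there were 3 (median -0.11). KO replicates 2 and 3 lay between, with 11 and 18 subunits above their mean and medians of -0.05 and +0.04. The highest of the 6 values fell in WT replicate 1 for 18 subunits and in KO replicate 1 for 11, and the lowest in WT replicate 3 for 15 and in WT replicate 2 for 10. The median of all genes tested also varied, from -0.16 in WT replicate 3 to +0.10 in KO replicate 2, and its part in the subunits' pattern was not tested.

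The summed level of the 31 subunits was 2386, 2054 and 1941 TPM in the WT-labelled libraries. In the KO-labelled libraries it was 2365, 2148 and 2196 TPM. Mean sums were 2127 ± 231 and 2236 ± 114 TPM (SD, n = 3 each), so the difference of 109 TPM was smaller than the spread among WT-labelled libraries. It was 239 TPM without WT replicate 1, 153 without KO replicate 2, 73.1 without WT replicate 2, 45.1 without KO replicate 1 and 16.5 without WT replicate 3. After median-ratio scaling it was -45.3. These transcripts made up 0.194% to 0.239% of the TPM of a library.

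Core and cap subunits did not follow the same order in every library. The median of the 20S genes relative to their own means was -0.01 in KO replicate 2 and -0.01 in KO replicate 3, while that of the 19S genes was -0.11 and +0.07. The within-label SD of the subunits on the log2(TPM + 1) scale had a median of 0.141. After the mean of the 31 subunits was subtracted in each library it was 0.0727, from 0.029 in Psmb7 to 0.207 in Psma3. The median over all genes tested was 0.207 before such a subtraction, at a median level of 7.65 TPM against 60.6 TPM for the subunits.

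Psma3, the subunit that departed most from the others, has a processed pseudogene with shared sequence. Of the 75-base stretches of its longest coding transcript, 21.3% occur unchanged in transcripts of other genes, foremost Gm13835 (chromosome 6, 31141979 to 31142663). Reads that lie wholly in such stretches may not be assignable to either gene. Read length and the counting of shared reads are not known here. Psma3 was at 105, 102 and 87.2 TPM in the WT-labelled libraries and 115, 115 and 82.9 TPM in the KO-labelled ones. Gm13835 was at 47.8, 46.7 and 56.8 TPM and at 44.1, 41.9 and 70.6 TPM in the same libraries, highest in WT replicate 3 and KO replicate 3, where Psma3 was lowest. The sum of the pair was 152, 148 and 144 TPM against 159, 157 and 153 TPM, a narrower range than that of either alone. TPM are levels per transcript length, so this sum is not a corrected level of Psma3. An exchange of reads within the pair was not tested. Every KO-labelled sum lay above every WT-labelled one, by 153.5 against 152.4 TPM at the nearest, whereas Psma3 alone overlapped. Separation in this direction held for 8.23% of all genes tested, and the pair was chosen after its values were seen, so no test is given. Psme2 and the retrogene Psme2b also share sequence (51.7% of the stretches of Psme2), as do Psmd13 and Sirt3 (14%) and Psmb7 and Nek6 (24.1%). These are shares of sequence and not errors in TPM, which would also depend on the level of the partner. Mean levels of these partners were 0.768 TPM for Psme2b, 70.0 for Sirt3 and 21.1 for Nek6. Psmc3ip shared 25.6%, with Mlx. Shares were also high for Psmb5 (40%), Psma5 (39.8%), Psmb3 (33.1%), Psmg3 (20.3%) and Psma4 (16.7%). The foremost partner of each of these had a mean of 0 TPM. Shares of further members are not listed. Nfe2l1 and Nfe2l2 shared no such stretch with another gene.

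**Figure D3:**
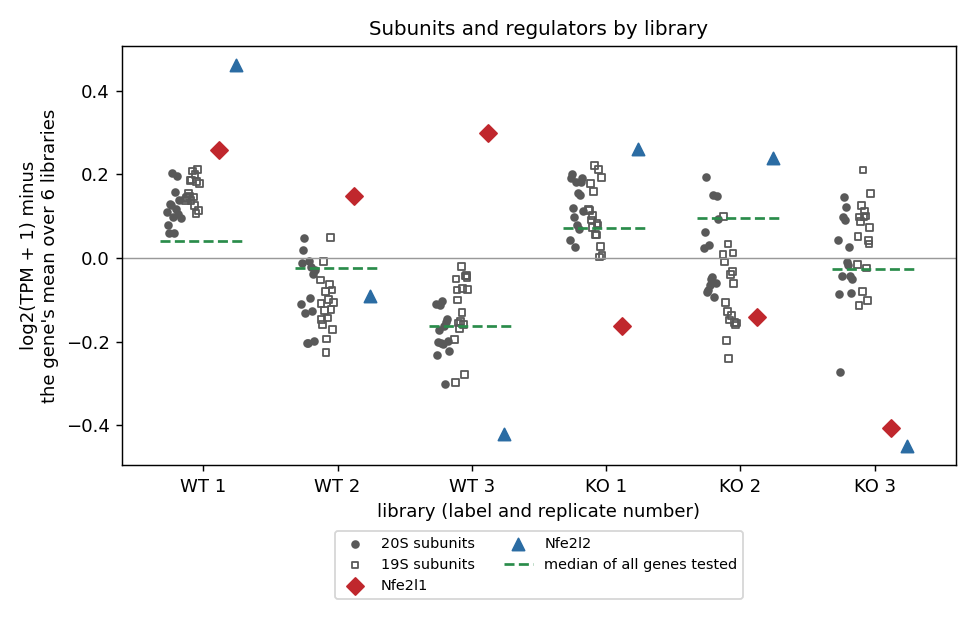
Deviation of each gene from its own mean over the 6 libraries, in log2(TPM + 1), for 20S subunits (filled circles), 19S subunits (open squares), Nfe2l1 (diamonds) and Nfe2l2 (triangles), with the median of all genes tested as a dashed line. Nfe2l1 is above 0 in the 3 WT-labelled libraries and below 0 in the 3 KO-labelled ones, while the subunits are highest in WT 1 and KO 1 and lowest in WT 3.

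Nfe2l1 and the subunits were on the same side of their means in some libraries and on opposite sides in others. In WT replicates 1, 2 and 3 Nfe2l1 deviated from its mean by +0.26, +0.15 and +0.30 on the log2(TPM + 1) scale, beside subunit medians of +0.14, -0.11 and -0.15. In KO replicates 1, 2 and 3 it deviated by -0.16, -0.14 and -0.41, beside +0.11, -0.05 and +0.04. Relative to the mean of the 31 subunits in the same library, the log2 level of Nfe2l1 was -0.72, -0.60 and -0.39 in the WT-labelled libraries and -1.12, -0.94 and -1.27 in the KO-labelled ones. The groups did not overlap on this relative scale, which hardly depends on how libraries are scaled. It rests on the same Nfe2l1 values as the separation given above, so it is no separate test. The share of all genes separated on such a scale was not computed. Means on this scale were -0.57 ± 0.17 and -1.11 ± 0.16 (SD, n = 3 each). Nfe2l2 deviated by +0.46, -0.09 and -0.42 in the WT-labelled libraries and by +0.26, +0.24 and -0.45 in the KO-labelled ones, on the same side as the subunit median in WT replicates 1, 2 and 3 and KO replicate 1 and on the opposite side in KO replicates 2 and 3. The 6 libraries are too few and too structured for a correlation, and none is given.

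**Figure D4:**
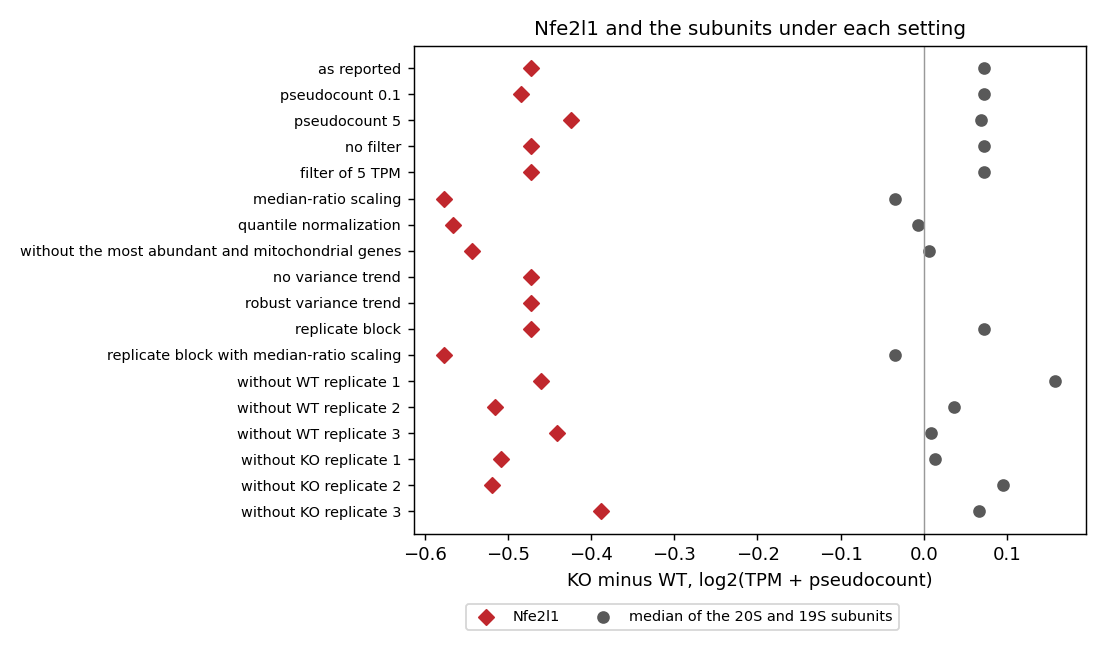
Difference between labels (KO minus WT) of Nfe2l1 (diamonds) and the median difference of the tested 20S and 19S subunits (circles), on the log2 scale, under each processing setting and with each library left out. Nfe2l1 lies between -0.58 and -0.39 throughout and the subunit median between -0.034 and 0.158. No circle is drawn for the variance settings, which leave that median as it is.

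The activators and the inhibitor PI31 gave no separation either. Psme1 and Psme2, which encode the interferon-inducible PA28 cap and lie next to each other on chromosome 14, were both lowest in WT replicate 3. Psme2 was at 77.4, 81.3 and 52.1 TPM in the WT-labelled libraries and 79.6, 84.5 and 67.9 TPM in the KO-labelled ones (difference +0.16, limma adjusted p = 0.993). Psme1 was at 86.7, 79.6 and 58.6 TPM against 74.9, 77.0 and 65.1 TPM. Psme4, which encodes the nuclear activator PA200, was at 23.2 ± 2.13 and 25.4 ± 0.925 TPM, Psme3 at 30.6 ± 1.80 and 31.2 ± 2.56 TPM, and Psmf1, encoding PI31, at 14.5 ± 1.19 and 14.3 ± 1.31 TPM (SD, n = 3 each). Psme2b, between 0.221 and 1.39 TPM, was not tested, nor was Psmc3ip, between 0.121 and 0.704 TPM.

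The assembly chaperones, which build the rings and the base and are absent from the finished particle, were less abundant, at mean levels of 7.81 (Psmd10) to 17.9 TPM (Psmg1). Psmd9, a chaperone of the 19S base, had the largest positive difference of any member. It was at 14.6, 17.01 and 12.4 TPM in the WT-labelled libraries and 21.4, 19.6 and 16.2 TPM in the KO-labelled ones, with KO replicate 3 below WT replicate 2. The difference was +0.36 with a standard error of 0.16 (exact permutation p = 0.2; unadjusted limma p of 0.0588, adjusted 0.993), and its unadjusted limma p was 0.0173 with the replicate block. Psmg1, a chaperone of the alpha ring, leaned the other way, at 20.03, 19.8 and 16.6 TPM against 17.8, 18.3 and 15.1 TPM (difference -0.13, exact permutation p = 0.3, unadjusted limma p of 0.369, or 0.0397 after median-ratio scaling). Its groups overlapped. Psmg4 was at 11.3 ± 2.17 and 12.3 ± 0.212 TPM and Psmd10 at 7.89 ± 1.17 and 7.73 ± 1.77 TPM (SD, n = 3 each).

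RefSeq promoter windows (GRCm38.p6, 250 bases before to 50 after the start of transcription) were matched for 41 of the 49 genes. They were searched on both strands for TGACNNNGC, the core of the antioxidant response element that NFE2L1 and NFE2L2 bind with small MAF proteins. It occurred in 4 of 28 windows of 20S and 19S subunits (14.3%) and in 7 of 48 windows of all members (14.6%), against 12.4% of 32851 promoter windows. The stricter form TGACTCAGC, which the first form includes, was in 0 of the 48 and in 0.454% of all windows. These shares describe letters in short windows only. The 4 subunit sites are shown, 5′ to 3′ on the strand of the gene, with the match in capitals, because they are the places where the motif lies beside a gene of the complex. The match is on the strand of the gene in Psmb5 and Psmb6, 47 and 9 bases before the start site, and on the other strand in Psmc6 and Psmd12, 227 and 247 bases before it.
Psmb5 (chr14:54618023-54618052, minus strand): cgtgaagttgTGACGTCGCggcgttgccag
Psmb6 (chr11:70525338-70525367, plus strand): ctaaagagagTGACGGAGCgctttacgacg
Psmc6 (chr14:45329587-45329616, plus strand): ccagccagtaGCTAAGTCAggcattgctca
Psmd12 (chr11:107479278-107479307, plus strand): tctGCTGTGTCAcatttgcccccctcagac
The window of Nfe2l2 itself also holds the motif, 240 bases before its start site, as do those of Psmd9 and Psme4.
Nfe2l2 (chr2:75704884-75704913, minus strand): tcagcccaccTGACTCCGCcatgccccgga
The subunit genes with the motif, Psmb5, Psmb6, Psmc6 and Psmd12, had differences of +0.05, +0.10, -0.025 and +0.015, within the range of the other subunits. No window was matched for Psma8, Psmb1, Psmb2, Psmb7, Psmc3, Psmd3, Psmd7 and Psmg2.

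Genes that process NFE2L1, control its turnover or pair with it mostly had differences above 0 in the values as deposited. Of 21 tested genes on this list, 20 had a difference above 0 with a median of 0.114, and none was called. Over all genes tested, 74.5% were above 0 and the median was 0.095. After median-ratio scaling 12 were above 0, with a median of 0.013. An unadjusted limma p below 0.05 was seen for 3, all higher in the KO-labelled libraries, beside 2.76% of all genes in that direction, and for 0 after median-ratio scaling. It was seen for 1 without the most abundant and mitochondrial genes, beside 258 of 12630 genes in that direction. With the replicate block and median-ratio scaling it was seen for 2, beside 257 of 11440. Mafg, which encodes a small MAF partner of NFE2L1, was at 11.2, 11.9 and 11.7 TPM in the WT-labelled libraries and 14.5, 15.4 and 15.1 TPM in the KO-labelled ones, with no overlap (difference +0.34, exact permutation p = 0.1, unadjusted limma p of 0.0151, adjusted 0.993). Ogt, the O-GlcNAc transferase that modifies NFE2L1, was at 9.83, 10.5 and 10.7 TPM against 11.7, 15.5 and 14.05 TPM. Bach1, encoding a repressor at antioxidant response elements, was at 6.14, 6.51 and 6.12 TPM against 7.32, 8.52 and 14.8 TPM, most of whose difference came from KO replicate 3. Such separation in this direction held for 8.23% of all genes tested. The genes for the enzymes of NFE2L1 release showed little difference: Vcp, the extracting ATPase, was at 120, 91.9 and 103 TPM against 111, 95.5 and 110 TPM, the protease gene Ddi2 at 48.4, 43.7 and 43.9 TPM against 48.6, 46.1 and 54.0 TPM, and the deglycosylase gene Ngly1 at 17.1, 16.7 and 15.0 TPM against 17.6, 17.2 and 16.3 TPM. Vcp, Ddi2 and Ngly1 were chosen for their roles after the values were seen.

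Other parts of the ubiquitin and proteasome pathway also gave no call. Of 16 tested proteasome-associated proteins and ubiquitin shuttles, 10 were above 0, beside 74.5% of all genes, and 1 had an unadjusted limma p below 0.05 and was higher, beside 2.76%. After median-ratio scaling 6 were above 0 and 10 below, and 0 had such a p, as also with the replicate block. That was Ubqln2, a shuttle that carries ubiquitinated proteins to the proteasome, at 5.22, 4.45 and 3.93 TPM in the WT-labelled libraries and 5.63, 6.40 and 5.97 TPM in the KO-labelled ones (exact permutation p = 0.1, unadjusted limma p of 0.0405, or 0.0544 after median-ratio scaling). Zfand2a was at 4.91 ± 1.26 and 5.79 ± 0.133 TPM and the scaffold gene Ecpas at 14.3 ± 1.70 and 15.9 ± 0.638 TPM (SD, n = 3 each). Of 6 ubiquitin and E1 genes, 3 were above 0 and 3 below. Ubb, which encodes a chain of ubiquitin units, was at 406, 393 and 324 TPM in the WT-labelled libraries and 457, 381 and 536 TPM in the KO-labelled ones, with overlapping groups. Rps27a, which encodes ubiquitin fused to a ribosomal protein, was at 246.5 ± 17.8 and 277 ± 6.77 TPM (SD, n = 3 each). Its groups did not overlap, with every KO-labelled value the higher (unadjusted limma p of 0.189, adjusted 0.993). Separation in this direction held for 8.23% of all genes tested.

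The immunoproteasome subunits, which replace the catalytic beta subunits after interferon, had differences of +0.20 (Psmb8), +0.23 (Psmb9) and +0.18 (Psmb10). These remained above 0 after median-ratio scaling, at +0.09, +0.13 and +0.07. Their size moved with single libraries: the median of 0.197 became 0.044 without WT replicate 3 and 0.343 without KO replicate 3. Without KO replicate 2 it was 0.126, with 1 of the 3 below 0. Psmb8 was at 38.1, 37.3 and 27.2 TPM in the WT-labelled libraries and 43.3, 43.0 and 31.5 TPM in the KO-labelled ones. Psmb9 was at 13.6, 11.7 and 12.9 TPM against 19.99, 17.1 and 9.98 TPM, and Psmb10 at 23.2, 24.8 and 17.8 TPM against 20.4, 32.9 and 22.2 TPM. All 3 overlapped between the labels, and the smallest unadjusted limma p was 0.327. Psmb8 was higher under the KO label for each replicate number, and with the replicate block its unadjusted limma p was 0.0518 (adjusted 0.724). Of 10 interferon-induced genes, 8 were above 0 with a median of 0.06, or 4 after median-ratio scaling, none called. Without WT replicate 1 the median was 0.218 and without KO replicate 3 also 0.218, without WT replicate 2 it was 0.002, without KO replicate 1 it was -0.009, without WT replicate 3 it was 0.031 and without KO replicate 2 it was 0.103. Tapbp was at 29.8 ± 3.68 and 34.5 ± 2.91 TPM, Tap2 at 7.14 ± 1.37 and 8.26 ± 0.541 TPM, and Isg15 at 11.8 ± 4.48 and 15.0 ± 6.47 TPM (SD, n = 3 each). Isg15 was higher under the KO label for each replicate number, and its unadjusted limma p was 0.443 without the replicate block and 0.0272 with it (adjusted 0.724). Kupffer cell and macrophage markers, 9 of 9 tested, summed to 207 to 293 TPM under the WT label and 261 to 278 under the KO label, and their part in these values was not tested.

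Of 13 tested NRF2 target genes, 3 were above 0 and 10 below, with a median of -0.123, or -0.206 after median-ratio scaling, and none was called or had an unadjusted limma p below 0.05. After that scaling 1 was above 0 and 12 below. The lean moved with single libraries. Without KO replicate 3, 10 were above 0 and 3 below (median 0.077), and without WT replicate 2, 7 and 6. It was 6 and 7 without WT replicate 1 (median -0.068) or KO replicate 2 (median -0.174). Leaving out WT replicate 3 gave 1 above and 12 below (median -0.349), and leaving out KO replicate 1 gave 0 and 13 (median -0.37). In that last fit 3 had an unadjusted limma p below 0.05, all lower, beside 82 of 11205 genes in that direction. With the replicate block 1 gene, Me1, which encodes malic enzyme and is named after its values were seen, had an unadjusted limma p of 0.0462 (difference -0.44). Ugdh was at 67.0 ± 8.36 and 56.2 ± 20.3 TPM, Pgd at 20.9 ± 3.11 and 17.7 ± 5.93 TPM, and Gsta2 at 20.9 ± 9.12 and 16.4 ± 13.9 TPM (SD, n = 3 each). In Ugdh, Pgd and Gsta2 the lowest value was in KO replicate 3. Among the other tested targets it was in KO replicate 3 for some and in WT replicate 3 or KO replicate 2 for others. Nfe2l2 was nearly level in KO replicate 3 and WT replicate 3, at 19.2 and 19.6 TPM. A link of these genes to Nfe2l2 or Nfe2l1 was not tested.

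**Figure D5:**
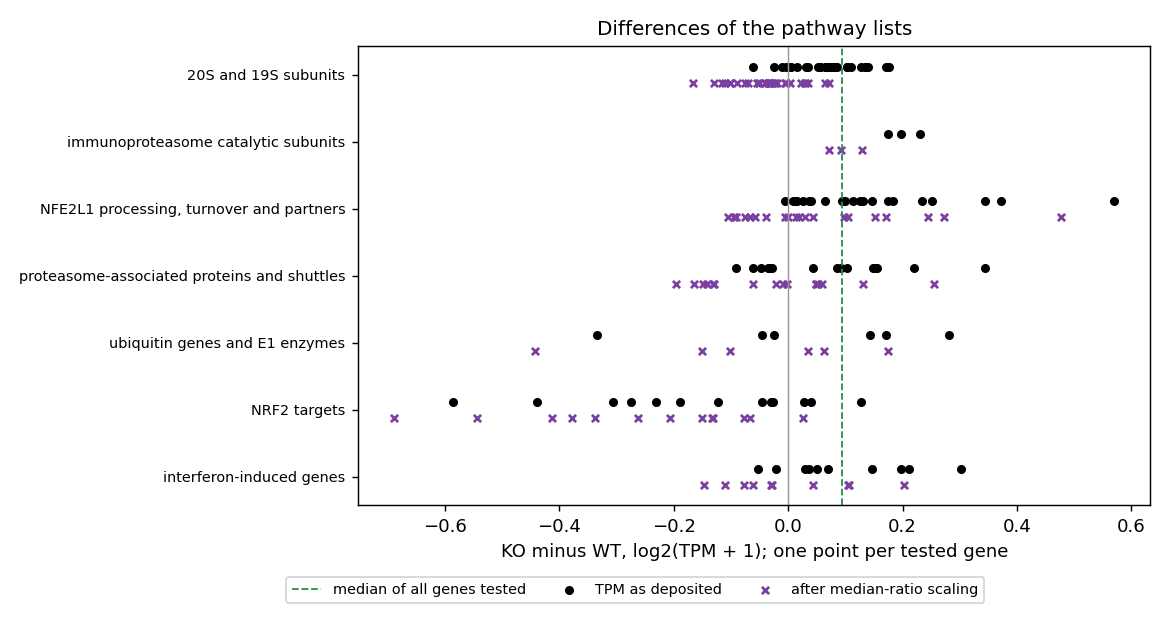
Difference between labels (KO minus WT, log2(TPM + 1)) of each tested gene in the 20S and 19S subunits and in 6 related lists, as deposited (dots) and after median-ratio scaling (crosses), with the median of all genes tested as a dashed line. The subunits lie within -0.06 to +0.18 as deposited, and the genes around NFE2L1 reach +0.57 in Bach1.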

How the data were processed

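RNA-seq of 6 mouse liver libraries was used as one table of TPM values that the authors deposited, with every column summing to the same total. The submitters' processing notes name mm10 and the tools HISAT2, fastp, featureCounts, limma and DESeq2 without roles or versions. The sources used here give neither strand, annotation nor the assembler of the added loci, so overlapping genes cannot be told apart. Of 54323 Ensembl identifiers, 51492 matched a GENCODE M21 name.

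The two-sided limma test (version 3.58.1, R 4.3.3, with its variance trend) was applied to log2(TPM + 1) of the 11440 genes that reached 1 TPM in 3 or more libraries, and p-values were adjusted by Benjamini-Hochberg, with a threshold of 0.05. This scale understates changes of low genes. The fit was also run on simulated data with added changes and independent noise, only to compare mean estimated with added changes. How often such changes were called is not given here, so that run does not bear on the absence of calls. TPM keep no read totals, so no counting interval is given. The genes and lists were chosen with earlier results of these data known.

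Named genes are the regulators, in each class the 3 smallest p and the highest and lowest level, all untested members, and the 3 smallest p of each pathway list. Psmb5, Psmb7, Psmd14, Psme1, Psmc6, Psmd12, Psmd1, Psmd13, Psmb3, Psmg3, Vcp, Ddi2, Ngly1, Dcn and Col1a1 were added after values were seen. Paaf1 was not matched and is not analysed here. The result of 1 gene that the rule names is not reported here.

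After subtraction of each label's mean, libraries with the same number correlated at 0.157, 0.408 and 0.381, and those of other pairs at -0.369 to 0.026. Each of the same-number values exceeds 0.1, so the replicate numbers may pair the libraries, as read from the data and not the labels. Subtraction makes the deviations within a label cancel, so higher values for some pairs force lower ones for others. The contrast therefore cannot establish a pairing, and a replicate block was tried only as an alternative. Spearman correlations between libraries were 0.945 to 0.978, and no pair shared more than 0.157% of values.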

Additional observations from a re-analysis of the deposited data

How the results depend on the processing

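Nfe2l1 kept its direction under all 17 alternatives run, from -0.577 with median-ratio scaling to -0.388 without KO replicate 3, and was not called under any. No member was called under any alternative. The difference of Nfe2l2 turned negative with median-ratio scaling (-0.071), quantile normalization (-0.061), without the most abundant and mitochondrial genes (-0.032) and with the replicate block and median-ratio scaling (-0.071), and ranged from -0.169 to 0.271 when 1 library was left out. The cause was not tested. Members with an unadjusted p below 0.05 numbered 2 with median-ratio scaling, quantile normalization, the replicate block, and the replicate block with median-ratio scaling, and 1 to 2 when 1 library was left out, 2 without WT replicate 2 or KO replicate 3. Over all genes, 0 were called with a pseudocount of 5, no filter, a filter of 5 TPM, quantile normalization, the replicate block or the replicate block with median-ratio scaling, and 0 to 2 when 1 library was left out. The replicate block changed no other call. The subunits' median difference ranged from -0.034 to 0.158 and changed sign with median-ratio scaling and quantile normalization, and 20 of 31 subunits changed sign with median-ratio scaling, so the directions of these depend on scaling. Of 1054 values of single named genes under alternatives, 1039 moved by less than 1 within-label SD and 0 were called (smallest limma adjusted p = 0.724). That SD is wide beside the differences: for the subunits its median was 0.141 and that of the differences 0.073. A smaller move can therefore still turn a sign. Depth is unknown, and 3 libraries per label limit the precision.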
